A study of Mus musculus with 8 samples.

Results

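The hypoxia sensing genes are 10 genes chosen by name and role from the 52195 genes listed: the HIF alpha subunits Hif1a, Epas1 and Hif3a, the beta subunit Arnt, the prolyl hydroxylases Egln1, Egln2 and Egln3, the ubiquitin ligase subunit Vhl, and the target genes Vegfa and Epo. Their levels were described in bulk RNA sequencing of whole kidney, lung, liver and small intestine of male C57BL/6J mice (labelled C57BL/6), 6 to 10 weeks old, with 2 libraries per organ from separate mice. All groups share strain, sex and age range, no treatment, transgene or change of oxygen is given for any of them, so organ is the only factor compared. Organs were washed in PBS and ground whole, polyadenylated RNA was sequenced, all 4 organs were taken from each mouse, and which library came from which mouse is not given in the sources used here. In bulk organs, fewer cells of a type and less RNA per cell cannot be told apart.

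Cells sense oxygen through the stability of HIF alpha proteins. In the presence of oxygen the EGLN enzymes (also called PHD) hydroxylate prolines of HIF alpha, VHL binds the hydroxylated protein and the ubiquitin ligase built around it marks it for destruction. When oxygen is short the alpha subunit accumulates, pairs with ARNT and binds hypoxia response elements of target genes, among them Vegfa, the main growth factor for blood vessels, and Epo, the hormone that drives red cell production. HIF1α is found in most cells, while HIF2α, the product of Epas1, is best known from endothelial cells, alveolar type 2 cells and the kidney interstitium. Because this control acts on protein stability, an mRNA level is the supply of a component and not the activity of the pathway.

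Levels are FPKM, read counts divided by transcript length and library size, and so can be set side by side between genes. Between 9164188 and 21444673 reads lay behind a library, and 8 of the 10 members passed the filter of 1 FPKM in at least 2 libraries, as 16328 genes did. In limma each organ was set against the mean of the remaining 3, on log2(FPKM + 1), a scale that understates differences of low genes. A gene was called where the Benjamini-Hochberg adjusted p over all genes tested was below 0.05 and the absolute log2 difference above 1. Because a mean is the reference, a gene very high in 1 organ can be called lower in an organ where it is not lowest. Mitochondrial transcripts took between 22.8% and 25.4% of the summed FPKM in lung and between 40.5% and 68.4% in the other organs. The median log2 difference of all genes was 0.82 for lung, -0.01 for small intestine, -0.34 for kidney and -0.72 for liver. Each result below is therefore also given, where the call changed, after median-of-ratios scaling, which divides each library by its median ratio to the genes' geometric means and brought these medians to -0.02, -0.05, -0.11 and -0.14. The organs held their own cell types: all 5 proximal tubule markers were called higher in kidney, all 5 alveolar type 1 and all 5 alveolar type 2 markers in lung, all 5 hepatocyte markers in liver and all 5 enterocyte markers in small intestine, and none of them was at 0 in its organ.

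**Figure D1:**
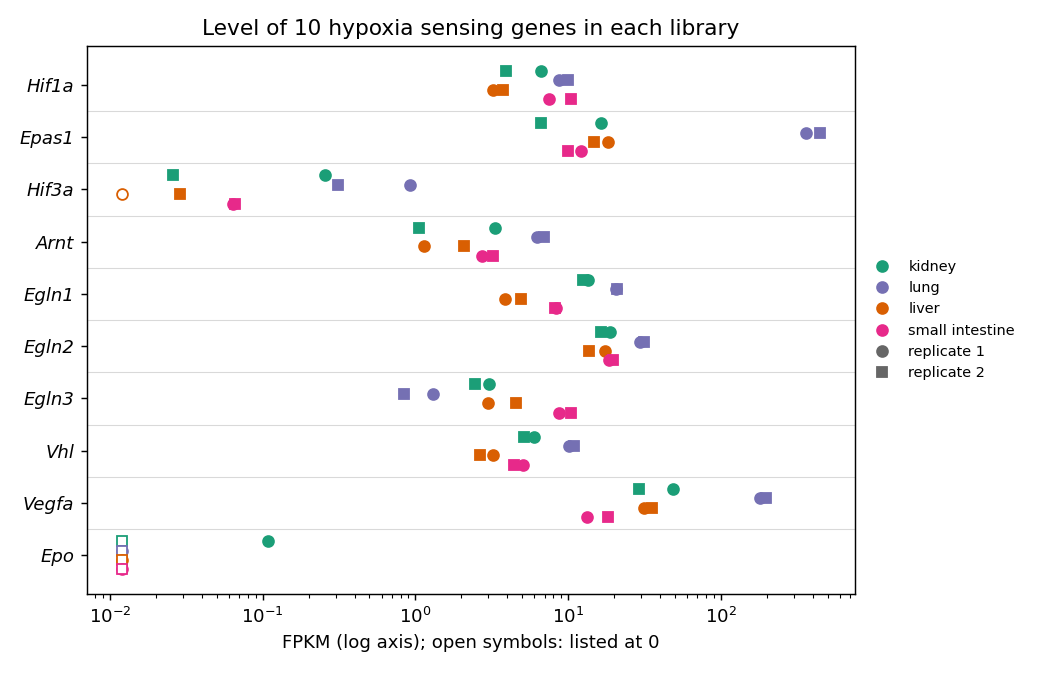
FPKM of each of the 10 genes in each of the 8 libraries on a log axis, coloured by organ, 1 point per library. Epas1 in lung (362 and 445) and Vegfa in lung (181 and 197) sit above every other library of the same gene, Egln3 is highest in small intestine, and Epo is above 0 in 1 kidney library only.

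Of the 8 members tested, 5 were called higher and 1 lower in lung, against 40.7% and 8.26% of all genes. Small intestine had 1 called higher and 2 lower (13.7% and 11.3% of all genes), kidney 0 and 1 (8.65% and 16.1%), and liver 0 and 2 (6.56% and 32.7%). Both libraries lay above all others for 6 members in lung (51.4% of all genes) and 1 in small intestine (12.8%), and below all others for 3 in liver (35.1%), 1 in lung (4.5%) and 1 in small intestine (8.0%). The members higher in lung were Epas1, Vegfa, Egln1, Arnt and Vhl, and the member lower there was Egln3. After median-of-ratios scaling Epas1 and Vegfa stayed called higher in lung and Egln3 lower, while the log2 differences of Egln1, Arnt and Vhl fell below the threshold. With that scaling the counts higher and lower were 2 and 1 in lung (14.6% and 16.0% of all genes), 1 and 2 in small intestine (13.0% and 11.6%), 0 and 1 in kidney (11.5% and 12.1%) and 0 and 0 in liver (12.3% and 13.9%). Without the first kidney library, 2 members were called lower in kidney and 1 in liver, where 21.5% and 30.4% of all genes were. The median log2 difference of the members was 1.21 in lung beside 0.82 for all genes, -0.14 beside -0.01 in small intestine, -0.31 beside -0.34 in kidney and -0.87 beside -0.72 in liver. When the organs were ordered by the mean of each member, 4 of 24 neighbouring pairs were called, beside 20.1% of the neighbouring pairs of all genes, each gene with its own order. For fixed pairs of organs, whatever their order, 62.7% of all genes were called between lung and liver, 50.3% between lung and kidney, 40.6% between lung and small intestine, 36.2% between liver and small intestine, 29.5% between kidney and small intestine and 23.1% between kidney and liver.

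**Figure D2:**
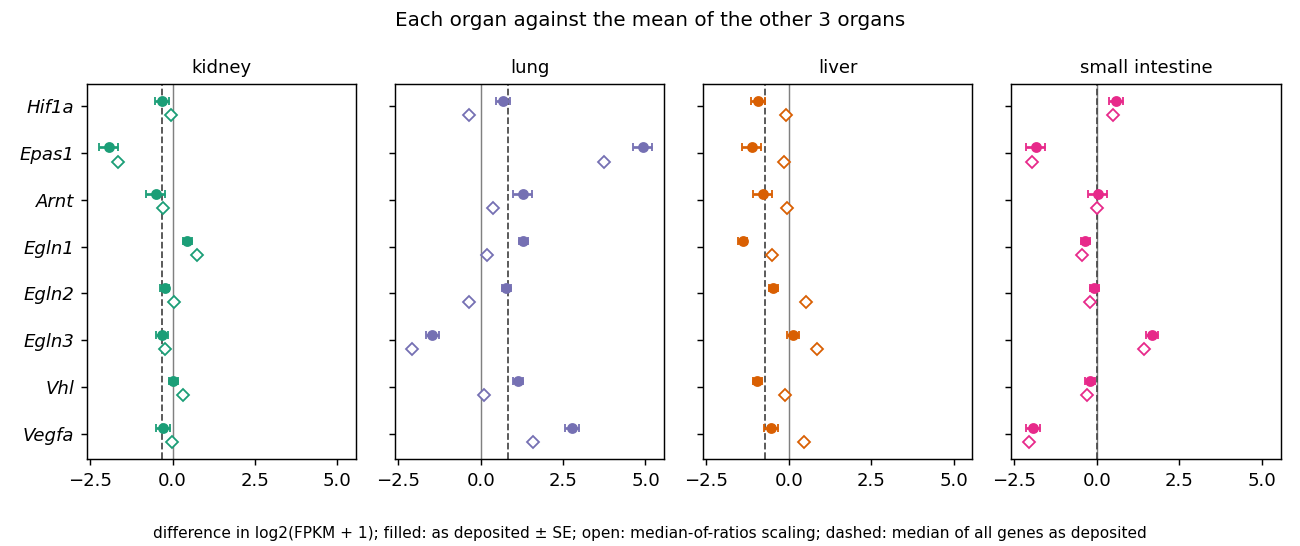
Log2 difference in log2(FPKM + 1) of each tested member in each organ against the mean of the other 3, with standard error, as deposited (filled) and after median-of-ratios scaling (open diamonds). The lung difference of Epas1 (4.91) and of Vegfa (2.76) stayed above 1 after scaling, and those of Egln1, Arnt and Vhl did not.

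Epas1 had the widest range of the 8 members tested. Its level in lung was 362 and 445 FPKM, while it was 18.3 and 14.8 in liver, 16.3 and 6.59 in kidney and 12.2 and 9.90 in small intestine. The lower lung library was 19.8 times the highest library of any other organ, and the lung mean of 404 ± 58.9 (SD, n = 2) was 24.4 times that of liver (16.5 ± 2.47). The log2 difference of Epas1 in lung was 4.91 (SE 0.29, limma adjusted p = 3.925e-06), or 3.75 after median-of-ratios scaling. Against liver, the next organ, it was 4.53 (limma adjusted p = 1.516e-05). By mean FPKM liver, kidney and small intestine followed in that order. Kidney overlapped both others, liver and small intestine did not overlap, and neither neighbouring pair passed the threshold (limma adjusted p = 0.229 and 0.911). On the log2 scale kidney minus small intestine was -0.06, so the order of these organs turned. The calls of Epas1 as lower in kidney (-1.93), liver (-1.13) and small intestine (-1.85) are set against a mean that includes lung, and that of liver was lost after median-of-ratios scaling (-0.13). Without the first kidney library the liver difference was -0.93 and without the second liver library -0.98, both below the threshold. Epas1 lies on chr17:86753700-86833410 of GRCm38, plus strand, and shares no exon base with another gene.

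Endothelial markers moved with Epas1. All 10 of them (Pecam1, Cdh5, Tie1, Tek and others, the proteins of endothelial junctions and receptors) were called higher in lung, beside 40.7% of all genes. All 10 kept the call after median-of-ratios scaling (14.6% of all genes). Their summed level was 873 and 1086 FPKM in lung and between 15.9 and 51.4 in the other organs, and none was at 0 in any library. Epas1 divided by that sum was 0.415 and 0.410 in lung, 0.317 and 0.196 in kidney, 0.814 and 0.704 in liver, while it was 0.484 and 0.621 in small intestine. Set against the endothelial sum, the lung libraries thus lay between those of kidney and those of liver and small intestine. Lung also stood apart in alveolar type 1 markers (5 of 5 called higher, summed level 1229 and 1499 FPKM, 10.4 to 65.0 elsewhere), in alveolar type 2 markers (5 of 5, 4 of 5 after scaling, 16391 and 14206, 6.06 to 26.1 elsewhere) and in cardiac muscle markers (4 of 4 tested of 5, 217 and 223, 0.185 to 9.10 elsewhere, with none at 0 in lung). The type 2 marker Abca3 did not stand apart, at 12.4 and 13.5 FPKM in lung and 21.0 and 8.81 in kidney. The part of endothelial, alveolar and cardiac cells in the level of Epas1 was not tested.

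**Figure D3:**
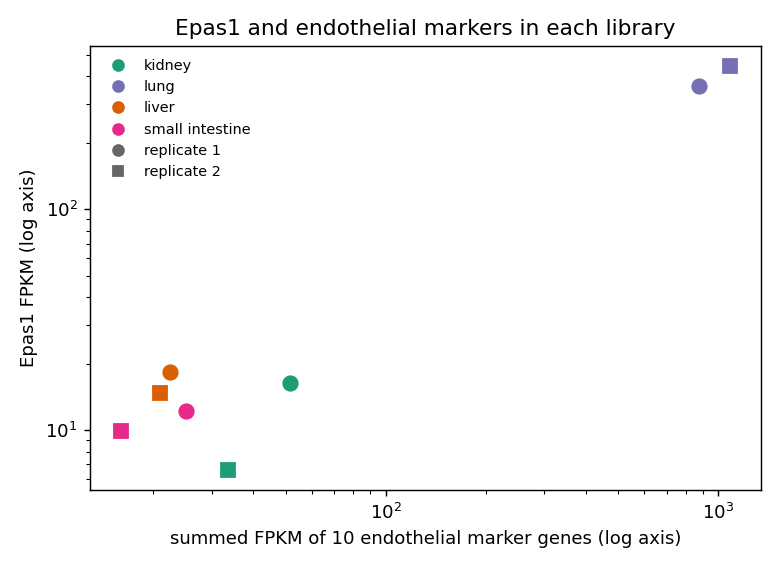
Epas1 FPKM against the summed FPKM of 10 endothelial markers in each library, both on log axes, 1 point per library coloured by organ. The 2 lung points (362 and 445 FPKM of Epas1 at sums of 873 and 1086) lie far above and to the right of the other 6, whose sums run from 15.9 to 51.4.

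The genes whose pattern over the 8 libraries was most like that of Epas1, by root mean square difference in log2(FPKM + 1) after centring among 16327 other genes, were Cdh5 (0.234), the endothelial cadherin, Cyyr1 (0.351) and BC028528 (0.379). Cdh5 stood at 126 and 149 FPKM in lung and between 1.81 and 4.28 elsewhere. All 3 share the jump to lung.

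Hif1a, the subunit found in most cells, varied far less. Its level was 8.67 and 10.004 FPKM in lung, 7.46 and 10.4 in small intestine, 6.67 and 3.94 in kidney and 3.22 and 3.73 in liver. Lung and small intestine overlapped, while both liver libraries lay below all 6 others. The lung mean was 2.69 times that of liver, and no organ was called. The liver difference was -0.94 on the log2 scale (SE 0.21, limma adjusted p = 0.004217) and -0.08 after median-of-ratios scaling. The lung difference turned from 0.67 to -0.34 with that scaling, so Hif1a had no direction in lung that held under both. Between neighbouring organs, lung and small intestine differed by 0.07 (limma adjusted p = 0.829), small intestine and kidney by 0.68 (0.06202) and kidney and liver by 0.46 (0.2). Hif1a lies on chr12:73901375-73947530, plus strand. Of its exon bases 8.11% are shared with other genes, among them the antisense Gm15283, which was at 0.136 FPKM or less, and the library kit marks no strand. The genes with the most similar pattern were Tfdp2 (0.0836), Strn (0.0836) and Ttc4 (0.0954), all 3 with their lowest library in liver.

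Hif3a, an alpha subunit with short forms known to restrain the others, was low in all 4 organs and near the detection limit in liver, small intestine and the second kidney library. It had 60 and 26 reads in lung (0.916 and 0.312 FPKM), 37 and 3 in kidney (0.257 and 0.0258), 4 and 5 in small intestine (0.0637 and 0.0658) and 0 and 2 in liver (0 and 0.0289). Both lung libraries lay above all others as deposited, at the smallest p the design allows (two-sided exact permutation test over 28 arrangements, p = 0.0357, not adjusted for other genes or organs). The margin was narrow: the lower lung library was 1.21 times the first kidney library, and this order was not examined after scaling. Of the genes past the filter, 51.4% had both lung libraries above all others. The lung libraries differed 2.94-fold. No fold is given between the kidney libraries, since the 3 reads of the second cannot be told from 0. In liver Hif3a was not detectable at this depth, since 3 reads correspond to between 0.0208 and 0.0488 FPKM across libraries.

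The balance of the alpha subunits differed between organs. Epas1 made up 97.4% and 97.7% of the summed alpha subunit FPKM in lung, 85.0% and 79.7% in liver, 70.2% and 62.5% in kidney, and 61.8% and 48.5% in small intestine. The ratio of Epas1 to Hif1a, which does not depend on the scaling of a library, was 41.8 and 44.5 in lung, 5.67 and 3.96 in liver, 2.45 and 1.67 in kidney and 1.63 and 0.949 in small intestine. In the second small intestine library Hif1a was thus slightly above Epas1. The log2 ratio in lung exceeded that of the other libraries by 4.24 (two-sided exact permutation test, p = 0.0357, adjusted p = 0.143 over the 20 ratio tests made). With 2 libraries against 6, no adjusted p below 0.143 was reached by any of the 20.

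Arnt, a partner of the alpha subunits, was at 6.22 and 6.93 FPKM in lung, 2.72 and 3.20 in small intestine, 3.30 and 1.05 in kidney and 1.14 and 2.08 in liver. Both lung libraries were above all others, both liver libraries lay below those of small intestine, and kidney overlapped each of these organs. The log2 difference in lung was 1.28 (SE 0.29, limma adjusted p = 0.003927) and 0.36 after median-of-ratios scaling, below the threshold. The second kidney library was 3.13-fold below the first. The summed alpha subunits exceeded Arnt 59.8-fold and 65.7-fold in lung and between 6.37-fold and 18.8-fold in the other libraries, a log2 difference of 2.79 (two-sided exact permutation test, p = 0.0357, adjusted p = 0.143). This ratio leaves out Arnt2, a relative of Arnt, which was at 3.03 and 1.53 FPKM in kidney and at 0.299 or less elsewhere. Arnt lies on chr3:95434388-95497240, plus strand.

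**Figure D4:**
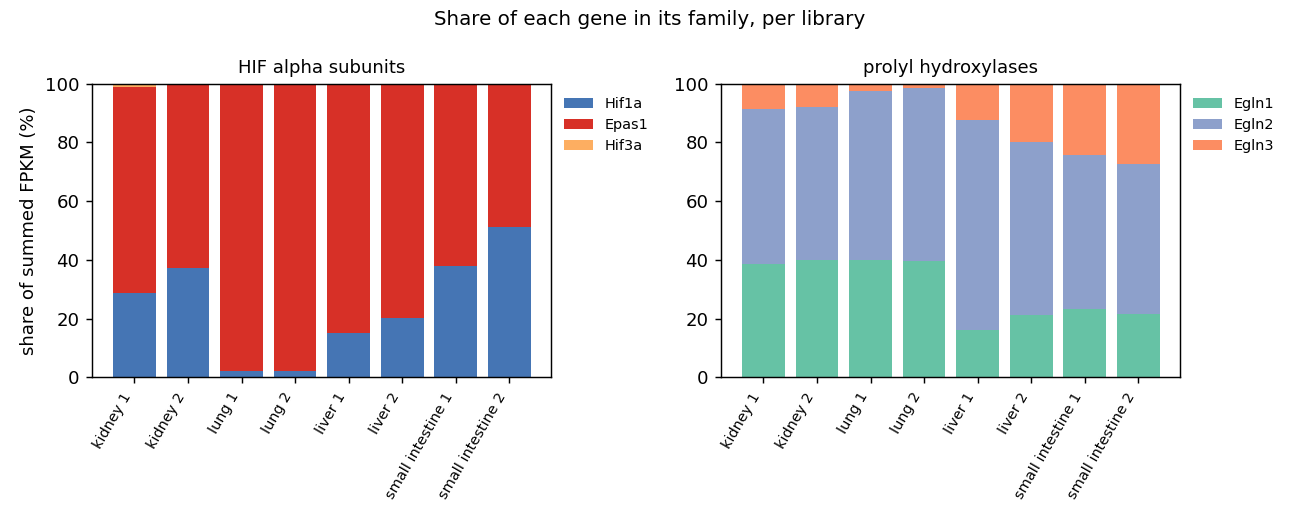
Share in percent of the summed FPKM of the 3 alpha subunits (left) and of the 3 prolyl hydroxylases (right) held by each gene, 1 stacked bar per library. Epas1 takes 97.4% and 97.7% of the alpha subunits in lung, and Egln3 takes 24.5% and 27.2% of the hydroxylases in small intestine against 2.54% and 1.60% in lung.

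The 3 prolyl hydroxylases had different organ patterns. Some of them are themselves known as HIF target genes, so the bases before their start sites were read from RefSeq promoter windows of GRCm38.p6. The core of the hypoxia response element was searched on both strands as ACGTG or GCGTG, which differ in their first base, so that no position starts both, although neighbouring matches can share a base. Among 32851 windows, 16.6% hold ACGTG, 28.2% GCGTG and 38.6% at least 1 of them. Windows were found for 9 of the 10 members, all but Epas1, and of 11 windows 5 held ACGTG and 9 either motif. A match is a run of letters and not a binding site. Capitals mark the motif in these sequences, read from the strand of the gene, which show the hydroxylases and, for comparison, the first window of Vegfa. The stretch of Egln1 is chr8:124949305-124949334 (minus strand), with ACGTG at position -68, counted back from the RefSeq start site, and a GCGTG lies further off at -126. GENCODE starts Egln1 upstream of the RefSeq start, at 124949324, so that by its gene model the ACGTG lies inside the gene. The window of Egln2 is chr7:27166803-27167052 (minus strand), that of Egln3 chr12:54203875-54204124 (minus strand) and that of Vegfa chr17:46032378-46032627 (minus strand), each the 250 bases before the start.
Egln1: gggccgtggtgtACGTGcagcgcgcgcgga
Egln2: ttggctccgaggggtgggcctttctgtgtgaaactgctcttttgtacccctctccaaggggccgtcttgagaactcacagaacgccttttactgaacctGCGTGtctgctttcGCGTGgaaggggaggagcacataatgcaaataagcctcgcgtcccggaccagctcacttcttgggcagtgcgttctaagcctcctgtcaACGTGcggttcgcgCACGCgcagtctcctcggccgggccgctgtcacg
Egln3: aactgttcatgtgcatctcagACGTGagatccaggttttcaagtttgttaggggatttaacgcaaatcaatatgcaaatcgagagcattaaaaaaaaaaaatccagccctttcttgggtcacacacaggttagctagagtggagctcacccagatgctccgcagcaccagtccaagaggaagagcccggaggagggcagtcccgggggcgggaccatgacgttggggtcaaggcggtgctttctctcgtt
Vegfa: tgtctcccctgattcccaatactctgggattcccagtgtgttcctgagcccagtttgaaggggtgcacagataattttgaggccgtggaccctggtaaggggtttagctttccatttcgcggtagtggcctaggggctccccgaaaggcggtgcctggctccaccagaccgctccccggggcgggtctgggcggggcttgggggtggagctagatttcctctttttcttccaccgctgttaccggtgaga
The window of Egln2 holds 4 motifs, 1 of them on the other strand, that of Egln3 holds 1, at position -229, and that of Vegfa holds none in these 250 bases. A second RefSeq window of Vegfa, which lies inside the gene at chr17:46025164-46025413, holds GCGTG at position -218 and ACGTG on the other strand at -211, and a second window of Egln2 holds GCGTG at -116.

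Egln1, which encodes PHD2, the main oxygen sensor of most cells, differed between neighbouring organs as deposited. Its level was 20.6 and 21.001 FPKM in lung, 13.6 and 12.6 in kidney, 8.32 and 8.23 in small intestine and 3.89 and 4.90 in liver. No libraries of neighbouring organs overlapped. The steps were 0.63, 0.60 and 0.79 on the log2 scale (limma adjusted p = 0.007255, 0.01507 and 0.003504), each below the size threshold. Against the mean of the other organs Egln1 was called higher in lung (1.30, SE 0.13, limma adjusted p = 5.103e-05) and lower in liver (-1.40, SE 0.13, limma adjusted p = 5.541e-05). After median-of-ratios scaling no organ was called and the order changed, with kidney highest (0.75, limma adjusted p = 0.003387), then lung (0.21), small intestine (-0.45) and liver (-0.51). Egln1 lies on chr8:124908587-124949324, minus strand.

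Egln2, which encodes PHD1, was as deposited the most even of the 8 members tested, with organ means that spanned 1.96-fold. It was at 29.6 and 31.2 FPKM in lung, 18.6 and 19.6 in small intestine, 18.7 and 16.3 in kidney and 17.5 and 13.6 in liver. The lung libraries were above all others, the liver libraries were below those of small intestine, and the kidney range overlapped both. The lung difference was 0.78 (limma adjusted p = 0.001007), below the size threshold, and -0.35 after median-of-ratios scaling, a change of sign. The liver difference also changed sign, from -0.46 (limma adjusted p = 0.01353) to 0.51 (0.03951), so that liver was then highest and lung lowest, and no organ was called under either. With scaling Egln2 was no longer the most even, since Vhl ran only from -0.30 in small intestine to 0.30 in kidney. Egln2 lies on chr7:27158658-27166802, minus strand.

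Egln3, which encodes PHD3, was the 1 member of the 8 tested that was called lower in lung. It was at 8.71 and 10.4 FPKM in small intestine, 2.99 and 4.55 in liver, 3.01 and 2.45 in kidney and 1.31 and 0.846 in lung. Both small intestine libraries lay above all others and both lung libraries below, while kidney and liver overlapped. Egln3 was called higher in small intestine (log2 difference 1.67, SE 0.19, limma adjusted p = 0.0002064) and lower in lung (-1.46, SE 0.19, limma adjusted p = 0.0002262). Both calls stood after median-of-ratios scaling, at 1.44 and -2.08. The mean in small intestine was 8.86 times that in lung and 2.53 times that in liver, the next organ (log2 difference 1.16, limma adjusted p = 0.003656). Egln3 lies on chr12:54178981-54203860, minus strand.

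Along with Egln3, small intestine was high in enterocyte markers (5 of 5 called higher, summed level 5837 and 7607 FPKM, 3.06 to 57.0 elsewhere), smooth muscle markers (4 of 4 tested of 5, 244 and 198, with 235 and 240 in lung and 4.06 to 21.0 in kidney and liver) and pancreatic acinar markers (6 of 6, 2618 and 1199, 2.34 to 77.1 elsewhere), none of them at 0 there. The part of these cells in the level of Egln3 was not tested. The genes most like Egln3 in pattern were Ttyh2 (0.109), Perp (0.188), a protein of cell junctions, and Ldha (0.210), lactate dehydrogenase, itself a common HIF target. Ldha was at 377 and 386 FPKM in small intestine, 85.2 and 80.8 in lung and between 152 and 180 in kidney and liver.

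Within the hydroxylases, Egln2 was the largest component in every library, at 51.2% to 71.7% of their summed FPKM. Egln1 held 38.4% and 40.1% in kidney, 40.0% and 39.6% in lung, 23.4% and 21.6% in small intestine and 16.0% and 21.3% in liver. Egln3 held 24.5% and 27.2% in small intestine, 12.3% and 19.7% in liver, 8.54% and 7.83% in kidney and 2.54% and 1.60% in lung. Liver had the lowest Egln1 share and the highest Egln2 share of all libraries, and lung the lowest Egln3 share (each two-sided exact permutation test p = 0.0357, adjusted p = 0.143 over the 20 ratio tests). Both margins of liver were narrow. Egln2 held 71.7% and 59.0% in liver and 58.8% in the second lung library, and Egln1 held 21.3% in the second liver library beside 21.6% in small intestine. The Egln3 share of small intestine lay above all other libraries (two-sided exact permutation test, p = 0.0714, adjusted p = 0.204).

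Vhl, the substrate receptor of the ubiquitin ligase, was at 10.2 and 10.98 FPKM in lung, 5.93 and 5.13 in kidney, 5.10 and 4.45 in small intestine and 3.20 and 2.65 in liver. Lung was above and liver below all other libraries. The log2 difference in lung was 1.13 (SE 0.14, limma adjusted p = 0.0001755) and 0.11 after median-of-ratios scaling, no longer called. That in liver was -0.95 (limma adjusted p = 0.0005469), just inside the size threshold, and -0.12 after scaling. As deposited, kidney and small intestine lay close together (0.18, limma adjusted p = 0.436). After scaling kidney was highest (0.30) and small intestine lowest (-0.30), and no organ was called. Vhl lies on chr6:113623959-113631633, plus strand.

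Of 15 other genes of the oxygen sensing machinery, all tested, 2 were called higher in kidney, 3 in lung, 0 in small intestine, and 5 were called lower in liver. Of all genes, 8.65% were higher in kidney, 40.7% higher in lung and 32.7% lower in liver, so that the list was below that share in lung and near it in liver. Those of kidney were Arnt2, a relative of Arnt, at 3.03 and 1.53 FPKM against 0.299 or less elsewhere (log2 difference 1.49, limma adjusted p = 0.0001944), and the deubiquitinase Usp20 (1.48). Those of lung were P4htm, a membrane-bound prolyl hydroxylase, at 2.40 and 3.35 FPKM against 0.324 or less (1.70, limma adjusted p = 8.628e-06), the ubiquitin ligase Siah1a, which acts on EGLN proteins (1.63), and Rbx1, the ring finger subunit of the VHL ligase (1.16). Siah1a (-1.79), Limd1 (-1.24), Usp20 (-1.12), Elob (-1.09) and Rbx1 (-1.03) were lower in liver. After median-of-ratios scaling Arnt2, Usp20 and P4htm kept their calls, Siah1a (0.59) and Rbx1 (0.01) lost theirs in lung, the 5 of liver lost theirs, and Crebbp, Cul2 and Os9 were called higher in liver. The median log2 difference of the list was 0.60 in lung and -0.72 in liver, beside 0.82 and -0.72 for all genes.

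Among the outputs, Vegfa was at 181 and 197 FPKM in lung, 48.7 and 29.3 in kidney, 31.2 and 35.1 in liver, with 13.3 and 18.2 in small intestine. Lung was above all others, small intestine below, and kidney and liver overlapped. The lower lung library was 3.72 times the highest other library, and the lung mean of 189 ± 11.4 (SD, n = 2) was 4.85 times that of kidney (39.0 ± 13.7). Vegfa was called higher in lung (log2 difference 2.76, SE 0.21, limma adjusted p = 1.237e-05) and lower in small intestine (-1.93, SE 0.21, limma adjusted p = 0.0001549). Both calls stood after median-of-ratios scaling, at 1.59 and -2.05. Small intestine was below liver, its neighbour in the order, by 1.04 (limma adjusted p = 0.009322), while kidney and liver differed by 0.19 (limma adjusted p = 0.626).

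Vegfa shares with Epas1 its high level in lung, where the endothelial, alveolar and cardiac markers given above were also high. Alveolar type 1 cells and, in the kidney, podocytes are known sources of Vegfa. Podocyte markers summed to 47.6 and 17.5 FPKM in kidney and to 54.8 and 56.0 in lung, where 3 of 5 were below 1 FPKM and none at 0. Divided by the endothelial sum, Vegfa was lowest in lung (0.208 and 0.182, against 0.528 to 1.67 elsewhere). The part of these cells in the level of Vegfa was not tested. The genes most like Vegfa in pattern were Dusp3 (0.140), Rbms1 (0.196) and Capn2 (0.210). Vegfa lies on chr17:46016993-46032369, minus strand.

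Of the other 9 VEGF ligands and receptors, all tested, 8 were called higher in lung, against 40.7% of all genes: the ligands Vegfc, Vegfd and Pgf, and the receptors Flt1, Kdr, Flt4, Nrp1 and Nrp2. Vegfd, a lymphatic growth factor, was at 17.2 and 16.5 FPKM in lung and 0.241 to 2.01 elsewhere (log2 difference 3.35, limma adjusted p = 5.718e-06). Kdr, the main signalling receptor of Vegfa, was at 21.4 and 34.2 in lung and 1.21 to 3.84 elsewhere (3.09, limma adjusted p = 2.5e-05). The exception was Vegfb, which was called higher in kidney, at 22.8 and 22.7 FPKM (1.21, limma adjusted p = 0.0002595), with lung next at 17.5 and 19.7. After median-of-ratios scaling 5 of the 8 kept their lung call, against 14.6% of all genes, while Flt4 (0.83), Pgf (0.90) and Nrp2 (0.63) did not.

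In small intestine 5 of the 9 were lower (11.3% of all genes), namely Nrp1 (-2.14), Vegfd (-1.60), Kdr (-1.56), Flt1 (-1.17) and Vegfb (-1.004), and all 5 kept their call with scaling. These calls are set against a mean that includes lung, and only Nrp1 lay below every other library as deposited. Flt1 was above liver (1.24 and 0.746 FPKM against 0.622 and 0.646), Vegfd and Vegfb overlapped liver, and Kdr overlapped kidney. In liver Flt1, Vegfd, Vegfc and Vegfb were lower as deposited (32.7% of all genes) and none was with scaling (13.9%), where Nrp1 was called higher instead (1.26, with 12.3% of all genes higher). Kdr, Flt1 and Flt4 are receptors of endothelial cells, and the endothelial sums given above were also highest in lung. The part of these cells in the levels of the receptors was not tested.

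Epo had 2 reads in 1 library, the first of kidney (0.109 FPKM), and 0 in the other 7. A count of 3 reads would give between 0.164 and 0.383 FPKM, so Epo lay below what this depth can detect in all 4 organs. In the annotation Epo spans chr5:137483020-137533242, minus strand, and 104 of its 855 exon bases (12.2%) are shared with Gnb2 on the same strand, which reached 73.7 FPKM. How reads on shared bases were counted is not given in the sources used here. A low listed value is not always a low transcript: Aldoa, an abundant glycolytic enzyme, was listed at no more than 0.385 FPKM, while Pgk1 of the same pathway was at 62.4 to 259. Markers of interstitial fibroblasts and pericytes, the kidney cells known to make Epo, summed to 26.9 and 19.6 FPKM in kidney, of which Nt5e alone gave 13.7 and 12.3, with none of the 6 at 0. The sum was 79.1 and 83.0 in lung, 38.7 and 33.7 in small intestine and 9.28 and 9.70 in liver.

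The 4 genes of erythropoietin signalling were all tested. The receptor Epor was at 2.16 and 3.28 FPKM in lung, 1.41 and 1.98 in kidney, 0.439 and 0.536 in liver and lowest in small intestine, at 0.269 and 0.311. Its call in lung (log2 difference 1.09, limma adjusted p = 0.0003909) was lost with median-of-ratios scaling (0.36). Jak2, the kinase bound to the receptor and to many others, was highest in small intestine at 14.5 and 20.3 FPKM (1.88, limma adjusted p = 0.0004292). It was lower in liver (-1.86) and kidney (-1.11), as were 32.7% and 16.1% of all genes. In lung Jak2 (1.09) and Stat5b (1.10) were called higher as deposited and not with scaling. With Epor, 3 of 4 were thus called higher in lung as deposited (40.7% of all genes) and 0 with scaling (14.6%). Stat5b was lower in small intestine under both (-1.14 and -1.22). With scaling the kidney call of Jak2 was lost and Stat5b was called higher in liver (1.34).

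**Figure D5:**
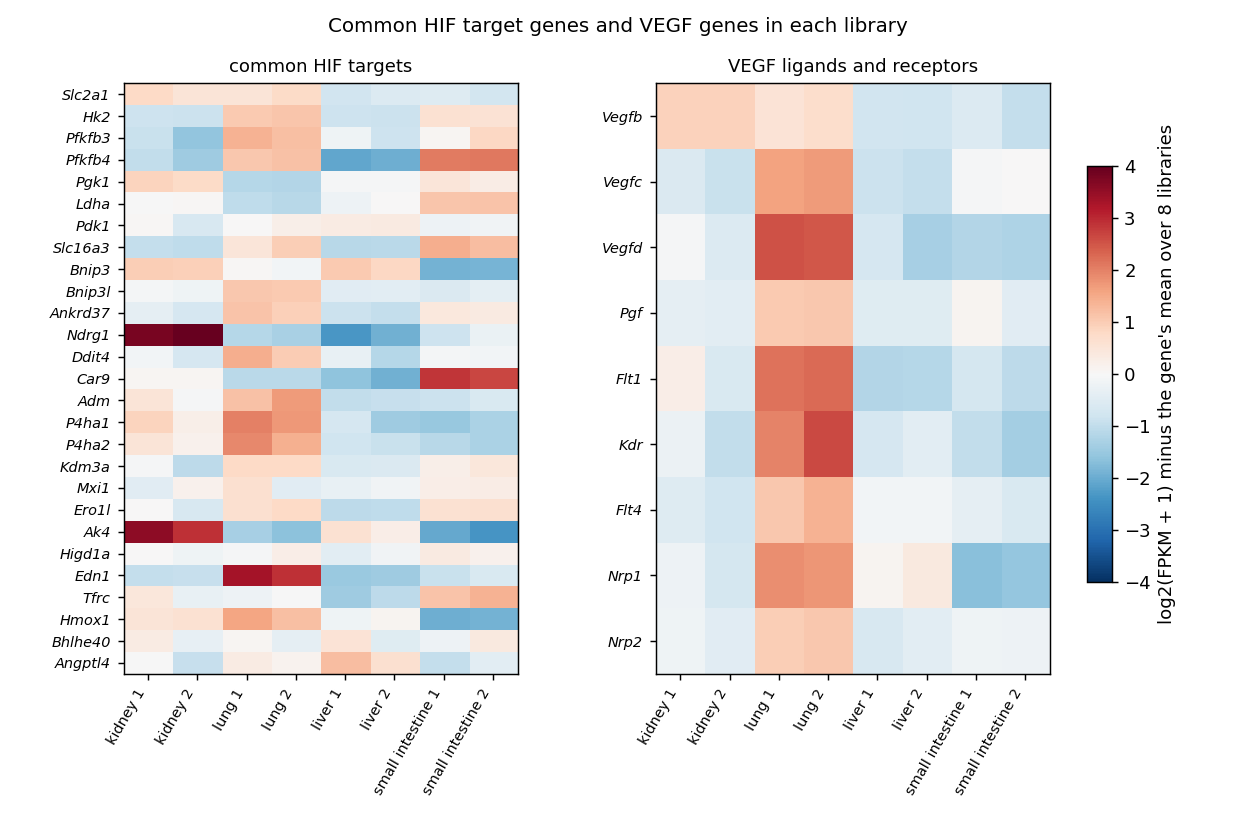
Difference of log2(FPKM + 1) from each gene's mean over the 8 libraries for tested common HIF targets (left) and the 9 other VEGF ligands and receptors (right), with red above and blue below that mean. Different targets peak in different organs, with Ndrg1 and Ak4 in kidney, Edn1 in lung and Car9 in small intestine, while 8 of the 9 VEGF genes peak in lung.

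Other common HIF target genes did not share 1 organ order. Of 30 on the list, 28 were tested, and Aldoa and Stc2 were below the filter. As deposited, lung had 13 called higher and 5 lower (40.7% and 8.26% of all genes), small intestine 5 and 5 (13.7% and 11.3%), kidney 4 and 5 (8.65% and 16.1%), and liver 2 and 12 (6.56% and 32.7%). With median-of-ratios scaling lung had 5 and 8 (14.6% and 16.0% of all genes), small intestine 5 and 6 (13.0% and 11.6%), kidney 7 and 3 (11.5% and 12.1%), and liver 4 and 5 (12.3% and 13.9%). In lung the lower calls then outnumbered the higher ones, as they did among all genes. The median of the list was 0.97 in lung as deposited (0.82 for all genes) and 0.04 with scaling (-0.02 for all genes).

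In kidney Ndrg1, a stress response gene, was at 169 and 191 FPKM against 1.44 to 9.24 elsewhere (log2 difference 5.18, limma adjusted p = 1.139e-06). Ak4, a mitochondrial adenylate kinase, was at 68.5 and 42.6 against 0.133 to 7.77 (4.33, limma adjusted p = 5.549e-06), and lowest in small intestine (-2.93). Bnip3, a mitophagy receptor, and Pgk1 were also higher in kidney (1.30 and 1.09). Pfkfb3 (-1.64), Pfkfb4 (-1.60), Slc16a3 (-1.31), Edn1 (-1.25) and Hk2 (-1.13) were lower there, of which Edn1 and Hk2 lost the call with scaling. Pfkfb4, Slc16a3 and Edn1 were lower still in liver.

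In lung Edn1, the vasoconstrictor endothelin, was at 34.4 and 25.3 FPKM against 0.255 to 1.32 elsewhere (4.16, limma adjusted p = 8.594e-07). It is made by endothelial cells among others. The 5 targets lower in lung were Ak4 (-1.98), Ndrg1 (-1.63), Pgk1 (-1.54), Car9 (-1.44) and Ldha (-1.41), 2 of them enzymes of glycolysis, and all 5 kept their call with scaling. Of these, only Pgk1 and Ldha were lowest in lung. Ndrg1 was lower still in liver (1.44 and 2.20 FPKM against 4.55 and 3.92), as was Car9 (0.284 and 0.0420 against 0.845 and 0.873). Ak4 was lower still in small intestine (0.414 and 0.133 against 1.32 and 0.849).

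In small intestine Car9, carbonic anhydrase 9, was at 27.4 and 24.1 FPKM against 0.0420 to 3.18 elsewhere (3.68, limma adjusted p = 1.04e-06). With it Pfkfb4 (2.78), the lactate transporter Slc16a3 (1.79), the transferrin receptor Tfrc (1.70) and Ldha (1.51) were higher, and all 5 kept their call with scaling. These lie beside Egln3, also highest there, while Vegfa was lowest there. Ak4 (-2.93), Hmox1 (-2.56), Bnip3 (-2.51), P4ha1 (-1.85) and P4ha2 (-1.57) were lower in small intestine. In liver Bnip3 (1.25) and Angptl4 (1.24), a regulator of lipoprotein lipase, were higher, and Ndrg1 (-2.83) and Pfkfb4 (-2.68) had the largest differences among the 12 that were lower.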

How the data were processed

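Polyadenylated RNA was sequenced from 8 organ libraries, 2 per organ, grouped by the sample titles. The authors deposited 1 table of FPKM values. By the study's methods, reads were selected by index with bbduk and mapped with STAR 2.5.3a to the Ensembl release 75 mouse genome (GRCm38). The authors obtained the FPKM values by the fpkm function in DESeq2. The counting tool, its use of strand and its handling of reads that match several genes are not given in the sources used here. Whole reads were recovered from the FPKM steps to give depth and detection limits: 94.5% to 96.1% of values below 50 reads were whole within 0.02 reads. Floors of 3 reads cover counting error only. With 2 mice per organ, limma p-values rest on 1 spread per gene, taken from all 4 organs together and drawn towards that of other genes. Permutation p-values only rank the 28 ways to pick 2 of the 8 libraries.

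Values were analysed as log2(FPKM + 1) with limma 3.58.1 (R 4.3.3, eBayes with trend), all 8 libraries in 1 fit, for the 16328 genes with at least 1 FPKM in 2 libraries. The same fit gave the pairwise contrasts between neighbouring organs, each adjusted over all genes. Ratios and Hif3a were compared by a two-sided exact permutation test on the absolute difference of means. Python 3.11.15, numpy 2.4.6, pandas 2.3.3, scipy 1.17.1 and matplotlib 3.10.9 were used. Coordinates are from GENCODE M21, where 51844 symbols matched 1 gene, and promoter windows from RefSeq.

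Named genes were all members, of each pathway list at most the 2 genes with the largest differences per organ among those called, any count of 5 or fewer by name, and for Hif1a, Epas1, Hif3a, Egln3 and Vegfa the 3 genes closest in pattern (Hif3a did not pass the filter, so none was named). For 1 gene of the HIF target list, which is counted with the list, no values are reported here. The members, lists and rules were chosen with earlier results of these data known. Alternatives were other pseudocounts, filters and scalings, limma-voom on the recovered reads, a replicate block and leaving out each library, and those on neighbouring organs were added after seeing the data.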

Additional observations from a re-analysis of the deposited data

How the results depend on the processing

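Of 12 single-gene calls of members, 7 held under all 19 alternative settings (Epas1 in kidney, lung and small intestine, Egln3 and Vegfa in lung and small intestine) and none reversed. In lung, members called higher numbered 5 as deposited, 2 after median-of-ratios scaling or quantile normalization (14.6% and 15.6% of all genes) and 3 (29.1%) with values set to the same sum without mitochondrial genes and pseudogenes, a setting that gave 1 member higher in kidney in place of 0 (15.3%). Members lower in liver numbered 2 as deposited, 0 after median-of-ratios scaling or quantile normalization (13.9% and 13.1% of all genes), 5 with a pseudocount of 0.1 (52.4%), and 4 with a pseudocount of 0.5, without mitochondrial genes or with limma-voom (43.1%, 37.6% and 48.7%). Of all genes called in lung, 83.1% were higher as deposited and 47.7% after median-of-ratios scaling; the split was 35.0% and 48.8% in kidney and 16.7% and 46.8% in liver. For the 56 tested genes of the pathway lists, median-of-ratios scaling moved the higher calls in lung from 27 to 11 (all genes 40.7% to 14.6%) and in liver from 2 to 9 (6.56% to 12.3%), and the lower calls in lung from 5 to 8 (8.26% to 16.0%), in liver from 22 to 6 (32.7% to 13.9%) and in kidney from 6 to 3 (16.1% to 12.1%). Quantile normalization gave 11, 7, 6 and 3 for lung higher, liver higher, liver lower and kidney lower (15.6%, 10.4%, 13.1% and 11.5% of all genes). With limma-voom, 12 list genes were higher in kidney (12.5% of all genes; 7 and 8.65% as deposited) and 18 lower in small intestine (15.2%; 11 and 11.3% as deposited, 18 and 18.3% with a pseudocount of 0.1). Of 24 neighbouring organ pairs of members, 4 were called (20.1% of such pairs of all genes), and 8 with values rescaled to the same sum (23.7%).

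Leaving out 1 library at a time gave 1 to 2 members lower in kidney, 1 to 3 lower in liver, 5 to 11 list genes lower in kidney (11 without the first kidney library, with 21.5% of all genes) and 1 to 2 higher in liver. The lung log2 difference ranged from 3.98 to 4.50 for the ratio of Epas1 to Hif1a and from 2.69 to 3.005 for that of the alpha subunits to Arnt, in the same direction throughout. These values stayed within 1 SD of the lung replicates in 3 of 8 and 6 of 8 runs. An organ left with 1 library was assumed to vary like the others. The cause of these changes was not tested.

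All 4 organs were taken from each mouse, but the labels do not say that a replicate number marks a mouse, and the values showed no pairing: the correlation of replicate differences between organs ran from -0.217 to 0.0528. With the replicate number as a block, 5 members were higher and 1 lower in lung, as without it, and no other member count changed. Values of 3 reads or fewer, as for Epo, cannot be told from 0 at this depth.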
